A study of Homo sapiens with 4 samples.

Results

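The genes described here encode the RAS-ERK signalling chain and the proteins that restrain it, from the RAS GTPases through the RAF, MEK, ERK and RSK kinases to the dual-specificity phosphatases (DUSP) and the Sprouty and Spred inhibitors. They were taken by symbol from a named list, and all 37 genes of the list were found among the 32673 genes of the expression table. RNA sequencing compared imatinib-sensitive TF1-BA cells with imatinib-resistant TF1-BAR cells, with 2 libraries for each. TF-1 is a human erythroleukaemia line that depends on the cytokine GM-CSF (the labels call it a CML cell line), and TF1-BA is a TF-1 line that carries the BCR-ABL fusion kinase. Both lines carry BCR-ABL and were grown in RPMI-1640 medium with 10% fetal bovine serum and GM-CSF, at 2 ng/mL by the labels and at a higher concentration by the study's methods. TF1-BAR cells were derived from TF1-BA by long culture with imatinib, an inhibitor of the ABL kinase, and were kept in 2 μM imatinib. Whether the cells were in imatinib at RNA extraction is not given in the sources used here, so the resistant state and drug exposure cannot be told apart. The labels title the TF1-BAR libraries VECTOR beside the cell line's name, and whether these cells carried an empty vector is not given in the sources used here, so an effect of a vector and the resistant state cannot be told apart either. Each state is represented by 1 cell line, and nothing says that the 2 libraries came from separate cultures, so p-values measure the spread between libraries, which may be technical.

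RAS proteins are switches that are active when bound to GTP. Exchange factors such as SOS2 and the RASGRP proteins load them, and GTPase-activating proteins such as NF1 and RASAL3 switch them off. Active RAS recruits RAF kinases, which phosphorylate MEK, which phosphorylates ERK. ERK then induces its own inhibitors, among them DUSP phosphatases and Sprouty proteins, so that RNA levels of these feedback genes are often read as a measure of ERK output. BCR-ABL is known to engage this chain through the adaptor GRB2. RNA levels were measured here, and neither phosphorylation nor protein.

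Promoter sequences are shown for RASGRP4, RASAL3, MAP2K1 and MRAS, since the first 3 passed the test under the most processing settings and MRAS was the most strongly lower gene of the list. They were taken from RefSeq (GRCh38.p14, 300 bases each, mostly upstream of the annotated start and reaching 50 bases past it, written 5′ to 3′ on the strand of the gene), where 31 of the 37 genes were matched. The RASGRP4 promoter lies on the minus strand of chromosome 19 at chr19:38426170-38426469, that of RASAL3 on the same strand at chr19:15464495-15464794, that of MAP2K1 on the plus strand at chr15:66386662-66386961, and that of MRAS on the plus strand at chr3:138348329-138348628. The RefSeq starts differ from those of the gene models in the expression table, so that the MRAS stretch lies wholly inside the gene span given below, while the other 3 straddle the upstream end of theirs. Capitals mark the only searched motif found, the E-box CACGTG in the RASAL3 promoter.
RASGRP4: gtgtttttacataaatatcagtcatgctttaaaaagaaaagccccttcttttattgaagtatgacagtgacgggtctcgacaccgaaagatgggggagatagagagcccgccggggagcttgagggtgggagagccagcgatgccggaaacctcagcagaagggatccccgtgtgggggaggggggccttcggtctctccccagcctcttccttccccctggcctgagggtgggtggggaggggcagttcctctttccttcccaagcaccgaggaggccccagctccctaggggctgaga
RASAL3: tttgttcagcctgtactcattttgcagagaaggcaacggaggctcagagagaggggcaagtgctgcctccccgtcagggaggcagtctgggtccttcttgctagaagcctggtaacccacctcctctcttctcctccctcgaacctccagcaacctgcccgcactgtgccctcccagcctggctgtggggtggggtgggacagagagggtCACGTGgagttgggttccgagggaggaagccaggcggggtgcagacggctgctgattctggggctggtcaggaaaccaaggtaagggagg
MAP2K1: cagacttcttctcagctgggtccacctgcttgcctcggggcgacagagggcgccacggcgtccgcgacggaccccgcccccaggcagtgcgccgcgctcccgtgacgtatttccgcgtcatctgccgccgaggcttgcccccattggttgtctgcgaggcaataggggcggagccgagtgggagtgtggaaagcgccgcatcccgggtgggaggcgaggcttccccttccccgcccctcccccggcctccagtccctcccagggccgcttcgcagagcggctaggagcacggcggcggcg
MRAS: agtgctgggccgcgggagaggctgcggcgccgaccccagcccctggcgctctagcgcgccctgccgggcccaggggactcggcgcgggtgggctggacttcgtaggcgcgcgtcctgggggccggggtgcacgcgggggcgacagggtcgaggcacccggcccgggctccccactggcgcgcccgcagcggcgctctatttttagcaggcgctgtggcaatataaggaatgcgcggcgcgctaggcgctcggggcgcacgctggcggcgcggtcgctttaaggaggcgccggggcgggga

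Both strands of the 31 promoters were searched for 6 motifs, chosen after expression values had been seen. The E-box CACGTG, bound by MYC and related factors, was in 5 of them (DUSP1, DUSP2, MAPK3, NRAS and RASAL3), or 16.1%, against 7.43% of all 27305 promoters of the same length. The ETS site CCGGAAGT was in 2 (NF1 and NRAS) and in 4.44% of all promoters, and the cyclic AMP response element TGACGTCA was in 2 (DUSP1 and NF1) and in 1.98% of all. The GATA site AGATAA was in the NRAS promoter alone and in 10.5% of all. The ETS core CAGGAAGT and the AP-1 site TGANTCA were in 0 of the 31, and in 3.20% and 7.76% of all promoters. RASAL3 was thus the single gene that held one of these motifs among the 8 with a promoter sequence that passed the expression test below. The median GC content of the 31 promoters was 68.3%, against 58.3% for all promoters.

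Library sizes were between 15465497 and 18042299 fragments, and the replicates correlated across genes at 0.983 in TF1-BA cells and 0.979 in TF1-BAR cells. All 10 markers of TF-1 and progenitor cells were detected, GATA1 and GATA2 among them, and 5 (CD33, CD34, GATA2, KIT and TAL1) were upregulated in TF1-BAR cells (16.3% of all genes tested were), the 10 together summing to 517 and 505 FPKM in TF1-BA and 625 and 660 FPKM in TF1-BAR cells. The other 5 did not pass. IL3RA overlapped between the cell lines, CSF2RB was at 47.7 and 44.9 against 59.1 and 53.2 FPKM (adjusted p = 0.0593 by limma), and GATA1 (75.4 and 74.7 against 65.9 and 70.6 FPKM), KLF1 (57.8 and 64.7 against 45.4 and 51.1 FPKM, adjusted p = 0.0519 by limma) and CSF2RA (7.90 and 8.07 against 6.64 and 7.28 FPKM) had both TF1-BAR libraries below both TF1-BA libraries. The groups did not overlap, in either direction, in 69.3% of all genes tested. Of 4 T cell markers, CD3D was lower (19.2 and 20.7 against 5.74 and 6.36 FPKM) while CD3E, CD3G and CD2 held at most 3 fragments in every library. Of the B cell markers, CD79A (1.84 and 2.19 against 3.55 and 3.15 FPKM) and CD79B (2.56 and 2.89 against 7.84 and 7.54 FPKM) were upregulated, and MS4A1 was not analysed here. Of the 3 monocyte markers analysed, LYZ did not pass the test and CD14 reached at most 2 fragments, and their sum was 13.6 to 16.6 FPKM over the 4 libraries. The 5 fibroblast markers summed to 0.767 and 0.631 against 1.54 and 1.53 FPKM, with LUM upregulated (0.276 and 0.151 against 1.18 and 1.10 FPKM), COL1A1 at 0.429 and 0.395 against 0.213 and 0.349 FPKM and COL1A2 at 0 or 1 fragment. Of the 5 TF-1 and progenitor marker calls, 1 was kept without TF1-BA replicate 1 (KIT) and none without TF1-BA replicate 2, and those of CD79A, CD79B and LUM were lost in both fits and that of CD3D in the second. The part of these differences in the results below was not tested.

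Expression was compared on log2(FPKM + 0.5), where FPKM is the number of fragments scaled to transcript length and to library size, with limma over the 15519 genes with a mean of at least 0.5 FPKM. Of the 37 genes 35 were tested, as PHLDA1 and IER3 lay below that level. A gene is called upregulated or downregulated where its adjusted p was under 0.05 over all genes tested. 7 of the 35 were upregulated in TF1-BAR cells (20.0%, against 16.3% of all genes tested), namely DUSP4, RASAL3, RASGRP4, DUSP7, SPRY1, HRAS and SPRED2. 2 were downregulated, MRAS and MAP2K1 (5.71%, against 10.5% of all genes). With a further threshold of 1 on the size of the log2 fold change, DUSP4 and RASAL3 remained (5.71%, against 4.75% of all genes). The 2 TF1-BA libraries did not overlap the 2 TF1-BAR libraries in 20 of the 35 genes (57.1%, against 69.3% of all genes). The shares of the list lay near those of all genes, so the counts describe these genes and do not set the list apart. In bulk RNA, fewer cells of a type and less RNA per cell cannot be told apart.

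The log2 fold changes (TF1-BAR minus TF1-BA) of the 35 genes ran from −0.90 in MRAS to 1.42 in DUSP4, with a median of 0.04, against a median of 0.07 for all genes tested. The median absolute change was 0.22, against 0.27 for all genes. 20 of the genes lay above 0 and 15 below. The balance of the calls depended on the scaling between libraries, as 77.8% of the called members were upregulated with the values as deposited, 45.5% (5 of 11) after upper-quartile scaling, 62.5% (5 of 8) after quantile normalization and 41.7% (5 of 12) with the trend on GC content, length and level removed. Over all genes called, the upregulated share was 60.9%, 46.0%, 51.3% and 51.5% in the same settings, so the balance moved in all genes and not in the list alone. RASGRP4, RASAL3, DUSP4, DUSP7 and SPRY1 made up the upregulated genes in each of these 3 settings, and MAP2K1 and MRAS were downregulated in each.

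**Figure D1:**
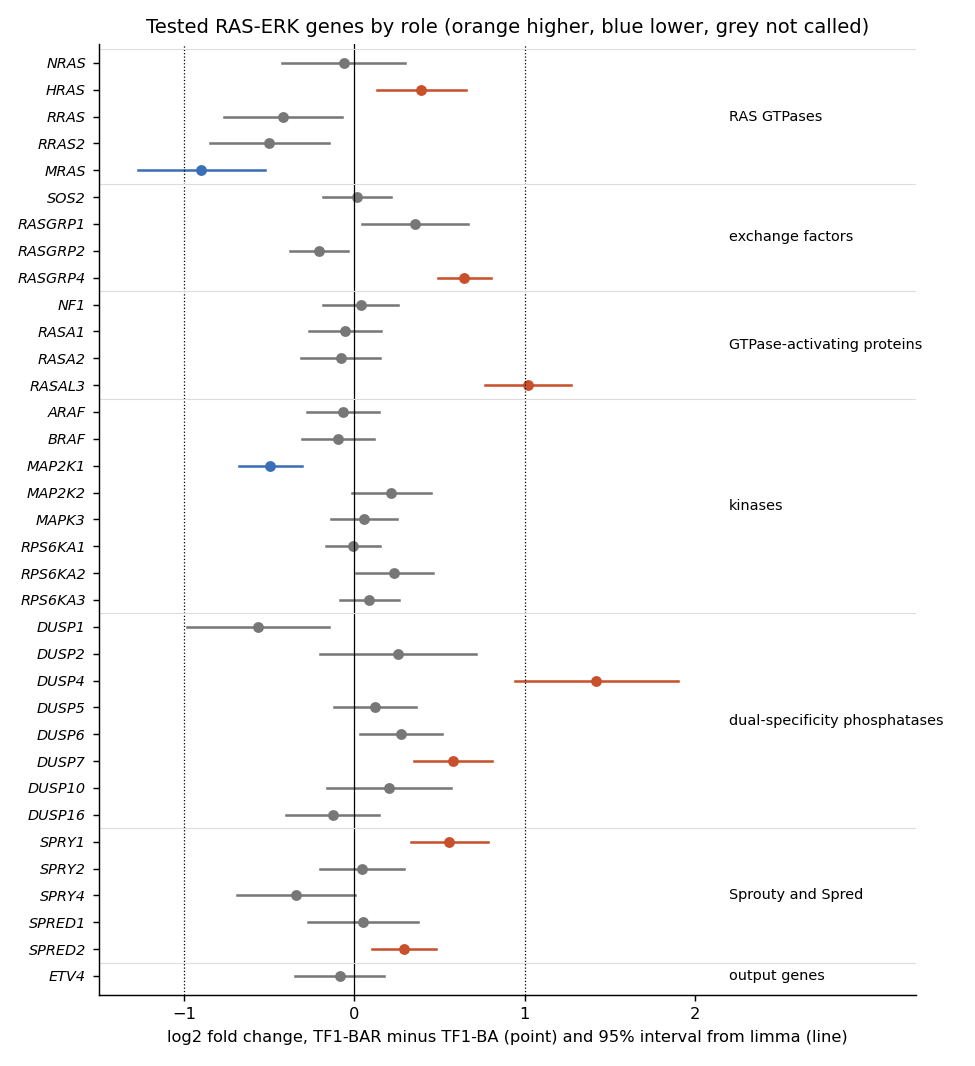
Log2 fold change, TF1-BAR minus TF1-BA, of the 35 tested genes (points, with lines for the 95% interval from limma), grouped by role; orange marks upregulated, blue downregulated and grey not called. The points run from −0.90 for MRAS to 1.42 for DUSP4, and the kinases other than MAP2K1 sit between −0.09 and 0.24.

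No gene of the list was called in the fits without TF1-BA replicate 1 or without TF1-BA replicate 2, where 1 library stands for the sensitive cells, is assumed to vary like the other group, and 144 and 42 of all genes passed the test. At an unadjusted p under 0.05 there were 9 and 8 of the 35 genes in these fits, beside 4209 and 4339 of all 15519 genes. Without TF1-BAR replicate 1, 5 genes were upregulated and 3 downregulated (1827 and 1349 of all genes). Without TF1-BAR replicate 2 there were 2 upregulated (RASGRP4 and RASAL3) and 1 downregulated (MAP2K1), beside 547 and 481 of all genes. Each gene's values in these fits are given with it below.

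**Figure D2:**
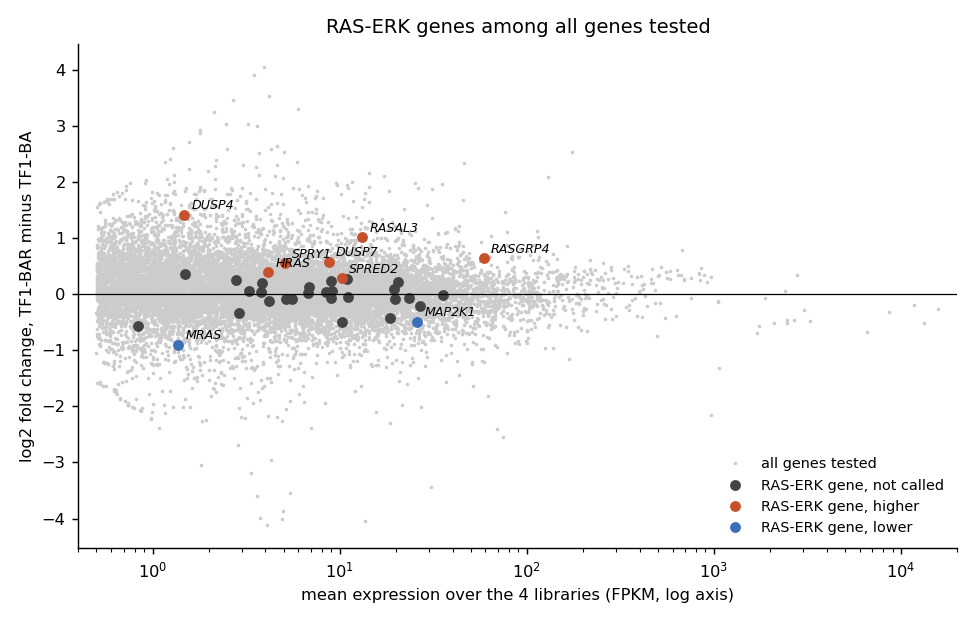
Mean expression over the 4 libraries (FPKM, log axis) against the log2 fold change, TF1-BAR minus TF1-BA, for all 15519 genes tested (light grey) and the 35 RAS-ERK genes (dark grey, orange where upregulated, blue where downregulated). RASGRP4 is the most highly expressed of the RAS-ERK genes, at a mean of 58.6 FPKM, and DUSP4 and MRAS lie among the low ones, at 1.47 and 1.36 FPKM.

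Of the RAS GTPases, HRAS was upregulated and MRAS downregulated in TF1-BAR cells, while NRAS, RRAS and RRAS2 did not pass the test. MRAS is a RAS relative that forms a complex with SHOC2 and a phosphatase that removes an inhibitory phosphate from RAF. MRAS (ENSG00000158186, chromosome 3, 138347648 to 138405534, plus strand, GRCh38) was at 2.11 and 1.75 FPKM in TF1-BA and at 0.807 and 0.792 FPKM in TF1-BAR cells, from 242, 172, 81 and 81 fragments. Both TF1-BAR libraries lay below both TF1-BA libraries, and the mean fell from 1.93 ± 0.255 to 0.799 ± 0.0111 FPKM (SD, n = 2 each). MRAS thus had a log2 fold change of −0.90 (SE 0.144, adjusted p = 0.0157 by limma), and it was between −1.26 and −0.70 over 16 alternative settings. In 5 of the 16 it was at least 1 in size. The mean FPKM in TF1-BAR cells was 0.415 times that in TF1-BA cells, and the 0.5 FPKM added before the logarithm made the log2 difference smaller. The call was lost without TF1-BA replicate 1 (adjusted p = 0.104), TF1-BA replicate 2 (0.0792) or TF1-BAR replicate 2 (0.0696), and without a filter on low values (0.0629), and its adjusted p reached a low of 7.65e-05 with voom on recovered fragments. Within 1 Mb of MRAS 7 genes were tested, with a median of −0.20, and 2 of them were downregulated.

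HRAS, one of the classical RAS genes, was at 3.62 and 3.38 FPKM in TF1-BA and at 4.45 and 5.07 FPKM in TF1-BAR cells, without overlap. HRAS had a log2 fold change of 0.39 (SE 0.101, adjusted p = 0.0465 by limma), close to the threshold. The adjusted p was above 0.05 in 10 of the 16 alternatives and between 0.0319 and 0.236 over all of them. It was 0.181 without TF1-BA replicate 1, 0.236 without TF1-BA replicate 2, 0.0580 without replicate 1 of TF1-BAR and 0.144 without replicate 2. NRAS, with the highest mean FPKM of the 5 GTPases over the 4 libraries, was at 24.7, 23.1, 26.2 and 19.9 FPKM in the order TF1-BA 1 and 2, TF1-BAR 1 and 2. The TF1-BAR replicates of NRAS were thus farther apart than the cell lines, and its log2 fold change of −0.06 had a 95% interval from −0.43 to 0.30. RRAS was at 18.7, 23.9, 14.9 and 16.5 FPKM and RRAS2 at 12.4, 11.7, 9.55 and 7.33 FPKM, with log2 fold changes of −0.42 (adjusted p = 0.0770) and −0.50 (adjusted p = 0.0522 by limma). Neither passed, although both TF1-BAR libraries of each lay below both TF1-BA libraries. RRAS passed in 4 and RRAS2 in 7 of the 16 alternatives.

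Among the 4 exchange factors of the list, RASGRP4 was upregulated and the others did not pass the test. SOS1, an exchange factor outside the list, was also upregulated. It was at 27.2 and 24.1 FPKM in TF1-BA and at 34.1 and 32.4 FPKM in TF1-BAR cells. Its log2 fold change was 0.37 (SE 0.0827, adjusted p = 0.0328 by limma), and 9 of 12 alternatives with every library called it. RASGRP4 is a diacylglycerol-responsive exchange factor known from mast cells and other myeloid cells. It was the most highly expressed gene of the whole list (level above that of 96.1% of the genes tested). RASGRP4 (ENSG00000171777, chromosome 19, 38409051 to 38426305, minus strand) was at 44.4 and 46.9 FPKM in TF1-BA and at 72.1 and 71.2 FPKM in TF1-BAR cells, from 3351, 3032, 4753 and 4790 fragments. The replicates lay close together and the cell lines far apart, at means of 45.6 ± 1.74 and 71.7 ± 0.602 FPKM (SD, n = 2 each). On the log2 scale the difference was 0.65 (SE 0.0604, adjusted p = 0.00603 by limma), and the adjusted p was under 0.05 in all 12 alternatives that kept every library. It was 0.0707 without TF1-BA replicate 1, 0.0639 without TF1-BA replicate 2, 0.0285 without replicate 1 of TF1-BAR and 0.0423 without replicate 2. A stretch of 38 exonic bases (0.908%) is shared with FAM98C on the opposite strand in GENCODE 44, whose log2 fold change was 0.03. No strand-specific protocol is named in the sources used here, so reads from such overlaps cannot be told apart.

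RASGRP2, which acts mainly on the RAS relative RAP1, was at 29.1, 28.1, 24.1 and 25.4 FPKM. Its log2 fold change of −0.21 did not pass (adjusted p = 0.0772 by limma), with 3 of 16 alternatives passing. RASGRP1, best known in lymphocytes, was at 1.25, 1.23, 1.68 and 1.78 FPKM, with a log2 fold change of 0.36 (adjusted p = 0.0879). SOS2, which GRB2 brings to activated receptors, overlapped between the cell lines at 6.62 to 6.99 FPKM, and the 95% interval of its log2 fold change ran from −0.18 to 0.22. The summed level of the 4 listed exchange factors, which leaves out SOS1, was 81.4 and 83.0 FPKM in TF1-BA and 104 and 105 FPKM in TF1-BAR cells. RASGRP4 held 54.5% and 56.5% of this sum in TF1-BA and 69.0% and 67.6% in TF1-BAR cells, while the share of RASGRP2 was 35.8% and 33.9% against 23.0% and 24.1%.

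**Figure D3:**
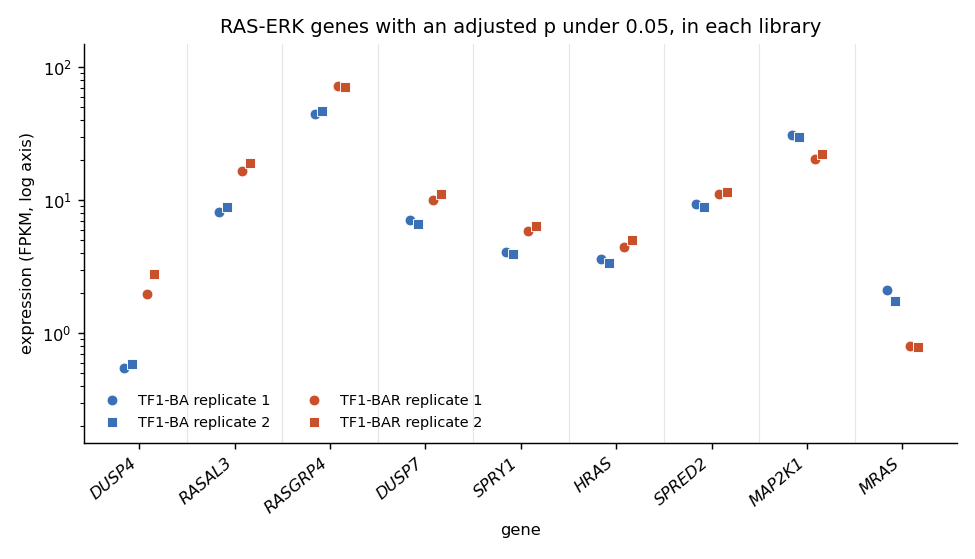
Expression (FPKM, log axis) of the 9 genes with an adjusted p under 0.05 in each of the 4 libraries, blue for TF1-BA and orange for TF1-BAR, circles for replicate 1 and squares for replicate 2. In each of the 9 genes the 2 blue and the 2 orange points do not overlap, and the widest gap between the cell lines is that of DUSP4.

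Of the 4 GTPase-activating proteins, RASAL3 was upregulated, and NF1, RASA1 and RASA2 overlapped between the cell lines. RASAL3 is a RAS GTPase-activating protein found mainly in blood cells. RASAL3 (ENSG00000105122, chromosome 19, 15451624 to 15464571, minus strand) was at 8.23 and 8.83 FPKM in TF1-BA and at 16.6 and 19.2 FPKM in TF1-BAR cells, from 695, 639, 1222 and 1442 fragments. The mean was 8.53 ± 0.423 against 17.9 ± 1.84 FPKM (SD, n = 2 each), 2.10 times as high in TF1-BAR cells. The log2 fold change was 1.02 (SE 0.0977, adjusted p = 0.00623 by limma), just past the threshold of 1, and it was 0.92 to 1.12 over the 16 alternatives, at least 1 in 10 of them. The adjusted p was under 0.05 in all 12 alternatives with every library, and was 0.0634 without TF1-BA replicate 1, 0.0594 without TF1-BA replicate 2, 0.0283 without replicate 1 of TF1-BAR and 0.0420 without replicate 2. Without TF1-BAR replicate 2 the log2 fold change was 0.92, below the threshold of 1.

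NF1, the neurofibromin gene, was at 3.80, 3.69, 3.93 and 3.78 FPKM, RASA1 was at 10.6 to 11.8 FPKM and RASA2 at 4.73 to 5.38 FPKM. Their log2 fold changes were 0.04, −0.06 and −0.08, and their 95% intervals stayed between −0.31 and 0.26. RASAL3 held 28.3% and 30.9% of the summed level of the 4 genes in TF1-BA and 45.2% and 50.0% in TF1-BAR cells, so that it moved from below RASA1 to above it. These shares cover the listed genes only. RASA3, outside the list, was at 16.33, 15.65, 16.64 and 19.36 FPKM, above RASA1 in every library, and did not pass the test. Both the factor that loads RAS and the one that unloads it with the largest differences, RASGRP4 and RASAL3, lie on chromosome 19, where the median over 1204 tested genes was 0.11. The median over neighbours within 1 Mb was 0.17 for RASGRP4 (50 genes) and 0.07 for RASAL3 (30 genes).

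Of the 8 kinase genes, MAP2K1 was downregulated and the other 7 did not pass the test. MAP2K1 encodes MEK1, which with MEK2 (MAP2K2) phosphorylates ERK. MAP2K1 (ENSG00000169032, chromosome 15, 66386817 to 66492312, plus strand) was at 31.0 and 29.7 FPKM in TF1-BA and at 20.6 and 22.3 FPKM in TF1-BAR cells, from 2103, 1728, 1221 and 1349 fragments. The mean fell from 30.4 ± 0.908 to 21.5 ± 1.21 FPKM (SD, n = 2 each), without overlap. The log2 fold change was −0.49 (SE 0.0724, adjusted p = 0.0128 by limma), and the adjusted p was under 0.05 in all 12 alternatives with every library. It was 0.113 without TF1-BA replicate 1, 0.0990 without TF1-BA replicate 2, 0.0361 when TF1-BAR replicate 1 was left out and 0.0452 when TF1-BAR replicate 2 was. In GENCODE 44 an antisense long non-coding RNA (ENSG00000261351) shares 1322 exonic bases (20.5%) with MAP2K1 and SNAPC5 shares 216 (3.34%). The level of the long non-coding RNA is not reported here, and its part in the MAP2K1 values was not tested. SNAPC5 had a log2 fold change of −0.03.

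MAP2K2 was at 18.6, 19.3, 20.6 and 23.8 FPKM, with a log2 fold change of 0.22 that did not pass (adjusted p = 0.135 by limma; 95% interval −0.01 to 0.45). The ratio of MAP2K1 to MAP2K2 within a library does not depend on the scaling between libraries. It was 1.67 and 1.54 in TF1-BA and 1.00 and 0.94 in TF1-BAR cells. MEK1 RNA thus exceeded MEK2 RNA in sensitive cells, and the 2 were at about the same level per length in resistant cells.

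Of the RAF genes, ARAF overlapped between the cell lines at 8.69 to 9.68 FPKM. BRAF was at 5.61, 5.83, 5.18 and 5.49 FPKM, with a log2 fold change of −0.09 that did not pass (adjusted p = 0.431 by limma; 95% interval −0.30 to 0.12), and the ARAF to BRAF ratio was 1.56 to 1.68 in all 4 libraries. MAPK3, which encodes ERK1, was at 8.73, 8.94, 8.92 and 9.51 FPKM, and the 95% interval of its log2 fold change ran from −0.14 to 0.25. Of the RSK genes, which encode kinases activated by ERK, RPS6KA1 was the highest at 34.6 to 36.2 FPKM, with an interval of −0.17 to 0.15, and RPS6KA3 was at 19.2, 18.5, 20.5 and 19.6 FPKM, with an interval of −0.09 to 0.26. RPS6KA2 was at 7.89, 8.38, 9.19 and 10.2 FPKM, with a log2 fold change of 0.24 (adjusted p = 0.105 by limma). The summed level of the 8 kinase genes was 135 and 136 FPKM in TF1-BA and 130 and 134 FPKM in TF1-BAR cells.

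Of the 8 dual-specificity phosphatases, DUSP4 and DUSP7 were upregulated, and DUSP1, DUSP2, DUSP5, DUSP6, DUSP10 and DUSP16 did not pass the test. DUSP4 is an ERK-inducible phosphatase of the nucleus. DUSP4 (ENSG00000120875, chromosome 8, minus strand) was at 0.542 and 0.588 FPKM in TF1-BA and at 1.97 and 2.79 FPKM in TF1-BAR cells, from 71, 66, 225 and 326 fragments. It had the largest difference of the list, 4.21 times as high in TF1-BAR cells on FPKM means of 0.565 ± 0.0324 and 2.38 ± 0.585 (SD, n = 2 each), while remaining one of the lowest in level. The log2 fold change was 1.42 (SE 0.186, adjusted p = 0.0106 by limma), which the 0.5 FPKM added before the logarithm made smaller, and it was 1.10 with 1 FPKM added, 1.88 with 0.1 FPKM added and 2.05 with voom on recovered fragments. The call was lost without TF1-BA replicate 1 (adjusted p = 0.0753), TF1-BA replicate 2 (0.0749) or TF1-BAR replicate 2 (0.0506), and without a filter on low values (0.0524), in a range over the 16 alternatives from 7.09e-06 to 0.0753. Within 1 Mb of DUSP4 12 genes were tested, with a median of −0.09, and 2 of them were downregulated.

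DUSP7, a cytoplasmic phosphatase that prefers ERK, was at 7.09 and 6.66 FPKM in TF1-BA and at 9.98 and 11.1 FPKM in TF1-BAR cells, without overlap. DUSP7 had a log2 fold change of 0.58 (SE 0.0885, adjusted p = 0.0138 by limma). The adjusted p was 0.0939 without TF1-BA replicate 1, 0.112 without TF1-BA replicate 2, 0.0331 without replicate 1 of TF1-BAR and 0.0614 without replicate 2, and 0.0506 without a filter on low values, in a range down to 2.61e-04. DUSP6, the best known ERK feedback phosphatase, was the highest of the 8 at 9.67, 10.1, 12.9 and 11.2 FPKM. Its log2 fold change of 0.28 did not pass (adjusted p = 0.0879 by limma; 95% interval 0.04 to 0.52), and 2 of the 16 alternatives called it. An antisense long non-coding RNA shares 28.6% of the exonic bases of DUSP6 in GENCODE 44.

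DUSP1, an immediate early gene, was at 1.15 and 1.03 FPKM in TF1-BA and at 0.566 and 0.585 FPKM in TF1-BAR cells, from 42, 32, 18 and 19 fragments. Both TF1-BAR libraries were lower, and the log2 fold change of −0.56 missed the threshold (adjusted p = 0.0601 by limma), 5 of 15 alternatives passing it. The ratio of DUSP4 to DUSP1 was 0.470 and 0.574 in TF1-BA and 3.48 and 4.77 in TF1-BAR cells. DUSP2 at 2.34 to 3.67, DUSP5 at 6.26 to 7.54, DUSP10 at 3.1 to 4.42 and DUSP16 at 3.74 to 4.63 FPKM overlapped between the cell lines. DUSP10 and DUSP16, which act mainly on the JNK and p38 kinases, had log2 fold changes of 0.21 and −0.13. DUSP5 lies on chromosome 10, where the median over 593 tested genes was −0.35, and its own was 0.12.

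Of the 5 Sprouty and Spred genes, SPRY1 and SPRED2 were upregulated, and SPRY2, SPRY4 and SPRED1 did not pass the test. Sprouty proteins block the step from receptors to RAS and RAF, and Spred proteins bring neurofibromin to RAS. SPRY1 (ENSG00000164056, chromosome 4, 123396795 to 123403760, plus strand) was at 4.08 and 3.92 FPKM in TF1-BA and at 5.88 and 6.39 FPKM in TF1-BAR cells, from 292, 240, 367 and 407 fragments. The log2 fold change was 0.56 (SE 0.0872, adjusted p = 0.0147 by limma), without overlap of the libraries. The adjusted p was 0.105 without TF1-BA replicate 1, 0.119 without TF1-BA replicate 2, 0.0376 without replicate 1 of TF1-BAR and 0.0675 without replicate 2, and 0.0506 without a filter on low values, in a range down to 0.00105. Within 1 Mb of SPRY1 5 genes were tested, with a median of −0.51, opposite in sign to its own.

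SPRED2 was at 9.30 and 8.97 FPKM in TF1-BA and at 11.1 and 11.5 FPKM in TF1-BAR cells, without overlap. The log2 fold change was 0.29 (SE 0.0723, adjusted p = 0.0423 by limma), the smallest of the 9 called genes. The adjusted p was 0.196 without TF1-BA replicate 1, 0.242 without TF1-BA replicate 2, 0.0654 without replicate 1 of TF1-BAR and 0.110 without replicate 2, and 6 of the 16 alternatives passed. SPRY4 was at 3.29, 3.26, 2.17 and 2.82 FPKM, with a log2 fold change of −0.34 that did not pass (adjusted p = 0.123 by limma). SPRY2 was at 7.96 to 9.19 FPKM and SPRED1 at 2.93 to 3.59 FPKM, both overlapping. Within each library, the ratio of SPRY1 to SPRY2 was 0.501 and 0.466 in TF1-BA and 0.738 and 0.695 in TF1-BAR cells, while that of SPRY4 to SPRY2 was 0.403 and 0.388 against 0.273 and 0.307. The first ratio was higher and the second lower in both TF1-BAR libraries.

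Of the 3 output genes on the list, ETV4, an ETS transcription factor induced by ERK, was at 19.8, 20.9, 17.6 and 20.9 FPKM, with a log2 fold change of −0.08 and a 95% interval of −0.34 to 0.18. PHLDA1 was below the filter at 0.309, 0.328, 0.440 and 0.463 FPKM, from 45, 41, 56 and 60 fragments. IER3 was close to absent from these libraries, at 1, 2, 0 and 6 fragments, so that a difference was not detectable at this depth. PHLDA1, SPRY2, SPRY4, DUSP4, DUSP6 and ETV4 also belong to a published set of 10 genes used as a transcriptional readout of ERK activity, which further holds CCND1, EPHA2, EPHA4 and ETV5. Of these 10 genes 7 were tested, and 2 were upregulated (16.3% of all genes tested were), DUSP4 and CCND1, which encodes cyclin D1. The median log2 fold change of the 7 was 0.07, the same to 2 decimals as that of all genes tested. CCND1 was at 8.56 and 7.36 against 11.5 and 12.4 FPKM (log2 fold change 0.56, SE 0.10, adjusted p = 0.0200 by limma). ETV5 was at 26.8, 26.7, 28.1 and 27.9 FPKM and did not pass, with a log2 fold change of 0.07. EPHA4 was below the filter at 0.147, 0.265, 0.630 and 0.939 FPKM, and EPHA2 held 6 fragments at most. Leaving out any 1 of the 4 libraries ended the call of CCND1 (adjusted p between 0.0524 and 0.125).

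A further list held 36 genes of the pathway outside the 37, of which 30 were tested. 5 of the 30 were upregulated and 6 downregulated, where 16.3% and 10.5% of all genes tested were, and the median log2 fold change was 0.06. The 6 with the largest changes were SHOC2 (−0.80), DAB2IP (0.79), DUSP3 (0.61), RPS6KA5 (−0.60), PEA15 (0.51) and MKNK2 (−0.45). Each of these 11 calls was lost in both fits that left out a TF1-BA library, while 7 were kept without replicate 1 of TF1-BAR and 2 without its replicate 2. SHOC2, the scaffold that binds MRAS, was at 19.0 and 17.8 FPKM in TF1-BA and at 11.6 and 9.26 FPKM in TF1-BAR cells (SE 0.121, adjusted p = 0.0134 by limma; 0.10 and 0.0890 without TF1-BA replicate 1 and 2). MRAS and SHOC2 were thus both lower. SHOC2 lies on chromosome 10, where the median of the tested genes was −0.35, and MRAS on chromosome 3, where the median was 0.05. DAB2IP, a further RAS GTPase-activating protein, was at 2.31 and 2.39 against 4.25 and 4.60 FPKM (SE 0.0937, adjusted p = 0.00895 by limma). RPS6KA5, a kinase downstream of ERK and p38, was at 2.09 and 2.05 against 1.18 and 1.21 FPKM (SE 0.115, adjusted p = 0.0239 by limma). DUSP3 is a small dual-specificity phosphatase, PEA15 a protein that holds ERK in the cytoplasm, and MKNK2 a kinase that ERK activates.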

How the data were processed

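The authors sequenced total RNA of both cell lines as 150-bp paired-end reads. The submitters' processing notes name GRCh38, TopHat2 (2.0.13), Cufflinks and Cuffdiff (2.2.0), and the annotation release is not given in the sources used here. The values that the authors deposited are FPKM per gene and library, without log transformation.

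The deposited FPKM on the scale log2(FPKM + 0.5) were fitted in R 4.3.3 by limma 3.58.1, using lmFit and then eBayes with a trend, over genes with a mean of at least 0.5 FPKM, with Benjamini-Hochberg adjustment over all 15519 of them. Fold changes on this scale understate those of low genes. The fit was tested on simulated data. A two-sided exact permutation test of 2 against 2 libraries cannot go below p = 0.333, so none was run. The 37 genes and all lists were chosen with earlier results of these data known. Gene pairs, motifs, the promoters shown and the removal of the trend on GC content, length and level (splines with 4 degrees of freedom) were chosen after values had been seen. Every gene of the list is named, and of the further lists at most the 6 called genes with the largest absolute log2 fold changes, besides SOS1. The uncalled genes named from these lists (ETV5, EPHA2, EPHA4, GRB2, FOS and RASA3) and from the cell type markers were named after their values had been seen. SOS1 was too. Some genes of the lists are not reported here.

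Fragments were recovered as the whole numbers behind the FPKM values (tolerance 0.002), at the annotated exon length for 14306 genes and at a fitted length for 16547. The rule that chose among fitted lengths was settled after looking at its results, and fragments of such genes may be off by a whole factor. The main test does not use them, and they cover counting error only. Exon overlaps come from GENCODE 44, which held 32278 of the 32673 gene identifiers. The alternatives were 1 or 0.1 FPKM added, a filter at 1 FPKM or none, scaling by upper quartile, by quantiles or to TPM, eBayes robust or with no trend, a replicate block, voom on recovered fragments, removal of the GC trend and leaving out each library.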

Additional observations from a re-analysis of the deposited data

How the results depend on the processing

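Over 16 alternatives, 468 of the values kept their direction and their side of the threshold, 42 lost an adjusted p under 0.05 by limma, 25 gained one and 24 changed sign. The 24 were values of genes that did not pass the test. Past both thresholds were 2 genes in the reported fit (737 of all genes), 1 with 1 FPKM added (487), 1 without a filter (508) and 1 after upper-quartile scaling (704). They numbered 3 with 0.1 FPKM added (1016 of all genes) and with voom on recovered fragments (1140), where MRAS joined at −1.17 and −1.26. After quantile normalization (697 of all genes) and with the GC trend removed (673) they numbered 2, but were DUSP4 and MRAS in place of DUSP4 and RASAL3. Without a filter, where 30853 genes were tested, 2 genes were upregulated and 1 downregulated (851 and 595 of all genes). The downregulated genes numbered 6 after upper-quartile scaling, 7 with voom on recovered fragments (beside 10 upregulated) and 7 with the GC, length and level trend removed, where 2223, 2376 and 2267 of all genes were downregulated. With 1 library left out, 0 to 2 genes were past both thresholds, 0 to 5 upregulated and 0 to 3 downregulated. The cause of these moves was not tested.

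The sign changed after upper-quartile scaling in SOS2 (−0.0699), NF1 (−0.0443), MAPK3 (−0.0303), RPS6KA3 (−0.0028), SPRY2 (−0.0432) and SPRED1 (−0.0276), after quantile normalization in SOS2 (−0.0427), NF1 (−0.0432) and SPRED1 (−0.0352), after rescaling to TPM in NRAS (0.0044), RASA1 (0.0095) and RPS6KA1 (0.0585), and with the GC trend removed in NRAS (0.10), MAPK3 (−0.0065) and SPRY2 (−0.0066). With 1 library left out, log2 fold changes ranged from −0.26 to 0.13 in NRAS, −0.0204 to 0.0533 in SOS2, −0.13 to 0.0168 in RASA1, −0.041 to 0.023 in RPS6KA1, −0.0541 to 0.14 in SPRY2, −0.0602 to 0.17 in SPRED1 and −0.20 to 0.0363 in ETV4.

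The replicate numbers do not pair the samples, as nothing says that same-numbered libraries shared a culture or day, and the deviations of same-numbered libraries correlated at 0.0646. In a fit with a replicate block, 5 genes of the list were upregulated and 4 downregulated (2347 and 1622 of all genes). DUSP1, PHLDA1 and IER3 are limited by depth, at 60 fragments or fewer in every library.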

Other observations

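Of 15 adaptor genes that connect receptors and BCR-ABL to RAS, 14 were tested, 3 were upregulated and 2 downregulated in TF1-BAR cells, where 16.3% and 10.5% of all genes tested were. GRAP2, an adaptor of the GRB2 family known from T cells and other blood cells, was at 3.69 and 3.42 FPKM in TF1-BA and at 14.5 and 16.6 FPKM in TF1-BAR cells, a log2 fold change of 1.98 (SE 0.0988, adjusted p = 0.00238 by limma; 0.0446 to 0.0503 with 1 library of TF1-BA left out). DOK2, an adaptor that damps RAS signalling, was higher (log2 fold change 0.69) and its relative DOK1 lower (−0.42). CRKL, a substrate of BCR-ABL, had a log2 fold change of 0.50 and GAB3 one of −0.34. Of the 5 calls, GRAP2 alone was kept without TF1-BA replicate 1, all were lost without TF1-BA replicate 2, all 5 were kept without replicate 1 of TF1-BAR, and GRAP2 alone was kept without its replicate 2. GRB2 itself was at 35.3, 36.2, 36.9 and 43.1 FPKM and did not pass, with a 95% interval of its log2 fold change from −0.08 to 0.39.

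Of 17 immediate early genes that respond to ERK, 14 were tested, 2 were upregulated and 4 downregulated (16.3% and 10.5% of all genes tested were), with a median log2 fold change of 0.01. IER2 (log2 fold change 0.71) and MYC (0.45) were higher. FOSL1 (−0.85), EGR1 (−0.68), MCL1 (−0.56) and ATF3 (−0.34) were lower. FOSL1, an AP-1 subunit, was at 13.7 and 12.4 FPKM in TF1-BA and at 6.49 and 7.58 FPKM in TF1-BAR cells (SE 0.105, adjusted p = 0.00960 by limma). EGR1, a zinc finger factor induced by ERK, was at 2.16 and 1.81 against 0.950 and 1.15 FPKM (SE 0.147, adjusted p = 0.0307 by limma). Each of these 6 calls was lost in both fits that left out a TF1-BA library, while 3 were kept without replicate 1 of TF1-BAR and 2 without its replicate 2. FOS was below the filter, at 29, 26, 14 and 10 fragments.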
